A study of Homo sapiens with 6 samples.

Results

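The S100 proteins and the annexins are the 2 families of calcium-responsive proteins described here, in Ewing sarcoma cells with high or low levels of the fusion EWSR1::FLI1. Members were taken by symbol, as the rows named S100 plus a letter and an optional number and the rows named ANXA plus a number. This gave 31 of the 26364 genes in the table, 19 S100 genes and 12 annexin genes. The 6 samples were all from one derivative of the Ewing sarcoma line A673, whose cells carry EWSR1::FLI1, namely A673/TR/shEF, which holds a tetracycline repressor and an shRNA against the chimeric mRNA that doxycycline switches on. All were grown with the antibiotics Blasticidine and Zeocin. Of the 6 samples, 3, called EWSR1::FLI1 high and numbered 1 to 3, received no doxycycline, and 3, called EWSR1::FLI1 low and numbered likewise, received 1 µg/mL doxycycline for 72 h. The study asked which genes respond when the fusion is depleted. The model is 1 cell line with no doxycycline-treated control lacking the shRNA among these samples, so the fusion's loss and doxycycline itself cannot be told apart here. The labels name the replicates both as clones and as experiments, and p-values measure the spread between these samples only.

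S100 proteins are small proteins that bind calcium through EF-hands, a helix-loop-helix fold, and mostly act as dimers that grip partner proteins inside the cell or, once released, bind receptors on other cells. Annexins bind acidic phospholipids of membranes when calcium rises and take part in membrane traffic and repair. Several S100 dimers dock onto the N-terminal tail of an annexin, as S100A10 does with ANXA2, S100A11 with ANXA1 and S100A6 with ANXA11, and most S100 genes stand together in a cluster on chromosome 1.

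RNA levels are FPKM (fragments scaled by gene length and by library), which allow levels to be compared between genes. Between 6980361 and 16658933 reads fell on genes in each library. FLI1 supplies the 3′ part of the targeted mRNA, and its levels in replicates 1, 2 and 3, the order kept for all values below, were 11.3, 12.7 and 14.2 FPKM with the fusion high and 2.91, 4.29 and 3.68 with it low (log2 fold change -1.57, SE 0.18, adjusted p = 0.00068). Of 8 markers of Ewing sarcoma, all above 0.5 FPKM in the EWSR1::FLI1 high libraries, 6 fell, and their summed level went from 957 to 993 FPKM in EWSR1::FLI1 high to 265 to 302 in EWSR1::FLI1 low. One library, EWSR1::FLI1 low replicate 1, stood apart: 18080 genes were above 0.5 FPKM in it, against 14205 to 15471 in the other libraries, and its summed FPKM was the lowest. Where leaving it out moved a member's call, both adjusted p are given. Log2 fold changes without it are given for members where they are named below. In total RNA from whole cultures, fewer cells making an RNA and less of the RNA in each cell cannot be told apart.

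In all, 6 S100 genes rose in EWSR1::FLI1 low (S100A10, S100A3, S100A13, S100A4, S100A2 and S100A6), while no annexin passed the threshold and no member of either family fell. The test was limma on log2(FPKM + 1) over the 15504 genes with a mean of at least 0.5 FPKM, with an adjusted p under 0.01 as threshold, and all log2 fold changes are EWSR1::FLI1 low minus EWSR1::FLI1 high on that scale. It could be applied to 12 of the 19 S100 genes and 7 of the 12 annexins. Over all genes tested, 4.51% were called higher and 3.37% lower. With limma, no S100 gene and no annexin was lower at an unadjusted p under 0.05 either, where 10 S100 genes and 3 annexins were higher, against 15.6% of all genes tested higher and 18.7% lower. Fitting the recovered reads with limma-voom called 5 S100 genes (those 6 without S100A6) and 1 annexin (ANXA4) higher and none lower, and called 6.1% of all genes higher and 5.06% lower. At an adjusted p under 0.05, which 9.87% of all genes passed as higher, 8 S100 genes and 2 annexins were higher. The median log2 fold change was 1.69 over the 12 tested S100 genes and 0.14 over the 7 tested annexins, against -0.05 over all genes tested. S100B and S100P were below a mean of 0.5 FPKM in EWSR1::FLI1 high and entered the test through the EWSR1::FLI1 low libraries alone. Of the other 10 tested S100 genes, 6 were called, 8 were higher at an unadjusted p under 0.05, and the median was 2.29.

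**Figure D1:**
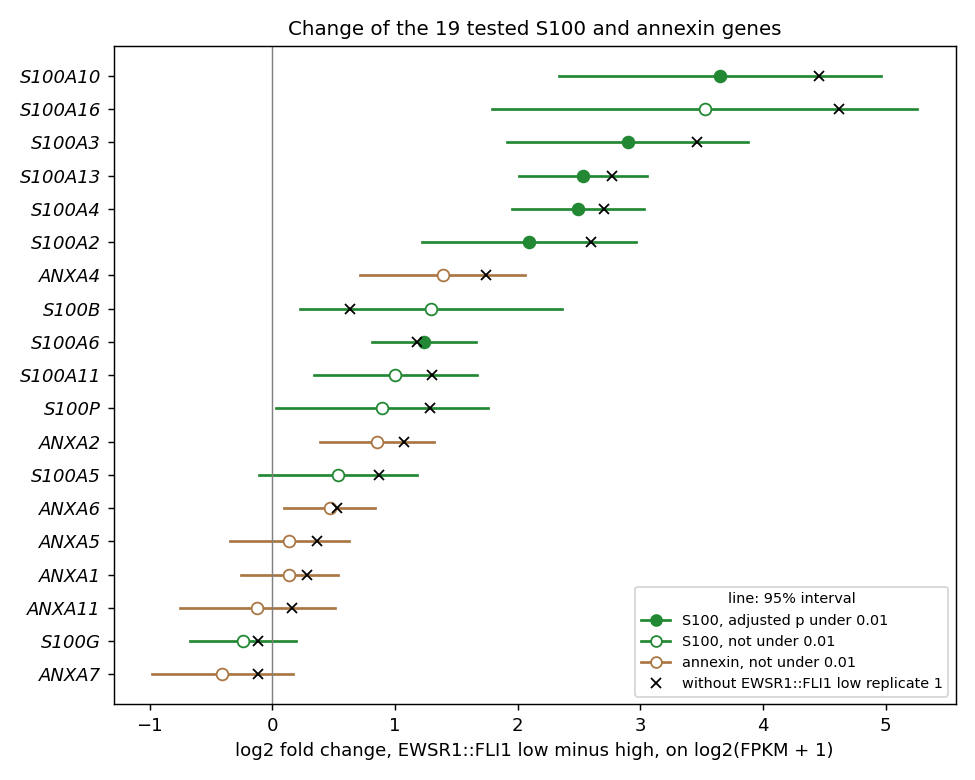
Log2 fold change (EWSR1::FLI1 low minus high, horizontal axis) of the 19 tested members, with lines for the 95% interval, filled points for an adjusted p under 0.01 and crosses for the estimate without EWSR1::FLI1 low replicate 1. The 6 filled points are S100 genes, from 1.24 for S100A6 to 3.65 for S100A10, and ANXA4 is the annexin farthest from 0.

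The values themselves separated the groups for some members of both families. Every EWSR1::FLI1 low library was above every EWSR1::FLI1 high library for 9 of the 12 tested S100 genes (the 6 called, S100A11, S100A16 and S100B) and 3 of the 7 tested annexins (ANXA2, ANXA4 and ANXA6), which held for 17.5% of all genes tested. Leaving S100B and S100P aside, it was 8 of 10 S100 genes. The opposite order, which held for 23.6% of all genes, was seen for none of the 19. The summed level of the 19 S100 genes was 72.7, 79.5 and 91.7 FPKM in EWSR1::FLI1 high and 228, 502 and 479 in EWSR1::FLI1 low. For the 12 annexins the sums were 1127, 1278 and 1287 FPKM in EWSR1::FLI1 high and 1217, 1784 and 1859 in EWSR1::FLI1 low. The S100 sums of the groups were thus apart, while the annexin sum of EWSR1::FLI1 low replicate 1 lay among those of EWSR1::FLI1 high. As a share of each library's summed FPKM, annexins held 3367 to 3738 millionths in EWSR1::FLI1 high and 4756 to 5273 in EWSR1::FLI1 low, and on that scale the groups did not overlap.

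S100A10, the partner of ANXA2 that no longer needs calcium to bind it, had the largest log2 fold change of the tested members on the log2(FPKM + 1) scale over all 6 libraries. S100A16 was ahead of it without EWSR1::FLI1 low replicate 1 (4.62 against 4.46), with a pseudocount of 0.1 (4.22 against 4.08), by limma-voom (4.33 against 4.15) and by the ratio of mean FPKM. S100A10 stood at 1.54, 2.85 and 2.69 FPKM in EWSR1::FLI1 high, from 17 to 24 reads, and at 12.5, 71.4 and 72.0 in EWSR1::FLI1 low, from 117 to 1184 reads. All 3 EWSR1::FLI1 low libraries were higher, but replicate 1 far less so than replicates 2 and 3. The log2 fold change was 3.65 (SE 0.58, adjusted p = 0.0033), and the ratio of mean FPKM was 22.0, or 30.4 without EWSR1::FLI1 low replicate 1. The gene lies on the minus strand at chr1:151955391-151966335 (GRCh37).

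S100A3, a zinc- and calcium-binding protein known from the cuticle of hair, showed a like pattern at a lower level. Its values were 1.42, 1.87 and 2.62 FPKM in EWSR1::FLI1 high and 8.99, 37.3 and 26.2 in EWSR1::FLI1 low (log2 fold change 2.90, SE 0.43, adjusted p = 0.0025). Again the groups did not overlap and EWSR1::FLI1 low replicate 1 was nearest to the EWSR1::FLI1 high libraries. S100A3 (chr1:153519805-153521734, minus strand, GRCh37) lies within the span of S100A4 (chr1:153516089-153522612) on the same strand, so reads of one can count for the other, and how the authors' counting divided them is not given in the sources used here.

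S100A4, also called metastasin or fibroblast-specific protein, binds non-muscle myosin. It stood at 19.1, 14.5 and 15.6 FPKM in EWSR1::FLI1 high and 71.6, 97.9 and 127 in EWSR1::FLI1 low, with a log2 fold change of 2.49 (SE 0.24, adjusted p = 0.00029). S100A13, which helps to export FGF1 and interleukin 1 alpha without a signal peptide, was at 13.5, 14.7 and 13.4 FPKM and at 60.6, 106 and 94.6 FPKM, with a log2 fold change of 2.53 (SE 0.23, adjusted p = 0.00023). For both genes the 3 EWSR1::FLI1 high values lay close together and every EWSR1::FLI1 low value was far above them. S100A13 (chr1:153591263-153603836, minus strand, GRCh37) overlaps S100A1 on the opposite strand, which was itself at 6 reads or fewer in each library.

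S100A2, a nuclear S100 protein of epithelial cells that can bind p53, stood at 1.09, 1.56 and 2.01 FPKM in EWSR1::FLI1 high and at 4.33, 15.0 and 13.7 in EWSR1::FLI1 low (log2 fold change 2.09, SE 0.38, adjusted p = 0.0068). S100A6, or calcyclin, differed in its pattern. It stood at 0.698, 0.918 and 1.51 FPKM in EWSR1::FLI1 high and at 4.12, 3.39 and 3.76 in EWSR1::FLI1 low, with EWSR1::FLI1 low replicate 1 the highest of all (log2 fold change 1.24, SE 0.19, adjusted p = 0.0027). These levels rest on 5 to 8 reads per EWSR1::FLI1 high library and 19 to 40 per EWSR1::FLI1 low library. S100A6 was the one called S100 gene that was not lowest in replicate 1 within the EWSR1::FLI1 low group.

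**Figure D2:**
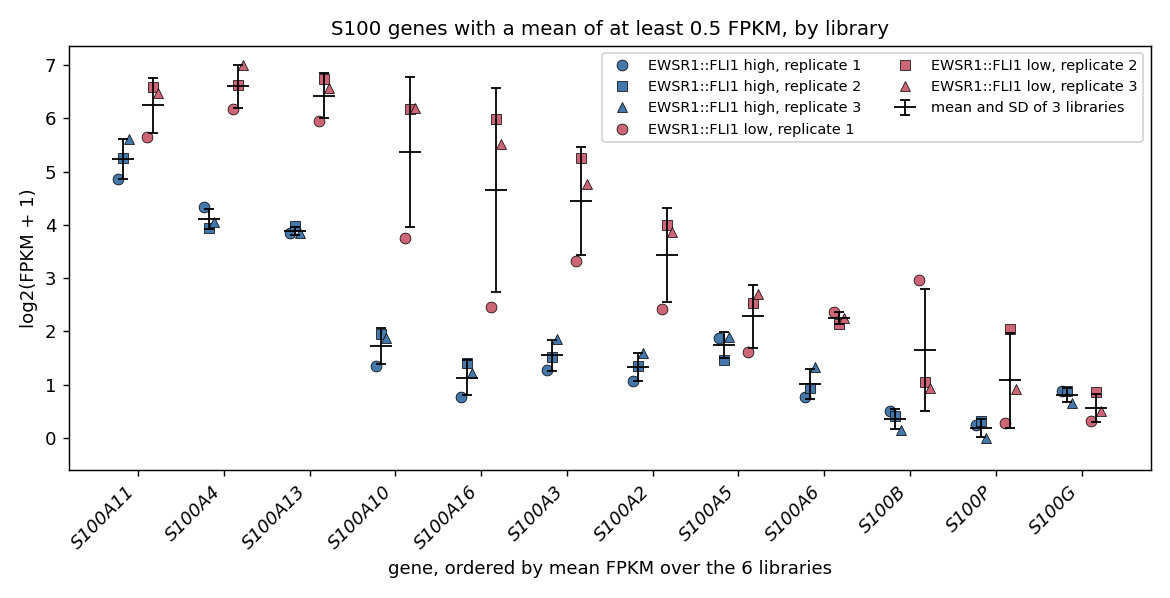
Level of the 12 tested S100 genes, as log2(FPKM + 1) on the vertical axis, for each EWSR1::FLI1 high (blue) and EWSR1::FLI1 low (red) library, with bars for the mean and SD of 3 libraries. EWSR1::FLI1 low replicate 1 (red circles) was below replicates 2 and 3 for 10 of the 12 genes, and above them for S100A6 and S100B.

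Of the S100 genes that did not pass the threshold, S100A11 and S100A16 were among the 10 most highly expressed members. S100A16 stood at 0.714, 1.64 and 1.33 FPKM in EWSR1::FLI1 high and at 4.53, 62.4 and 44.9 in EWSR1::FLI1 low. Its log2 fold change was 3.52, with an SE of 0.77 and an adjusted p of 0.014. Without EWSR1::FLI1 low replicate 1, the farthest from the other 2, the adjusted p was 1.8e-05, and the ratio of mean FPKM went from 30.3 to 43.7. S100A11, which docks onto ANXA1, was the highest S100 gene in each EWSR1::FLI1 high library, with 28.1, 37.2 and 47.6 FPKM, and was at 49.4, 95.7 and 88.3 FPKM in EWSR1::FLI1 low (log2 fold change 1.00, SE 0.29, adjusted p = 0.042; 0.0030 without EWSR1::FLI1 low replicate 1). Its 8 annotated pseudogenes were not in the table, and reads shared with them are uncertain. In the EWSR1::FLI1 low libraries S100A4 or S100A13 was the highest S100 gene in its place.

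None of the other 4 tested S100 genes passed, and 3 of them had few reads in most libraries. S100B, known from glia and melanocytes, stood at 0.420, 0.332 and 0.114 FPKM in EWSR1::FLI1 high and at 6.84, 1.07 and 0.905 in EWSR1::FLI1 low, with 69 reads in EWSR1::FLI1 low replicate 1 against 10 and 16 in replicates 2 and 3 (log2 fold change 1.29, adjusted p = 0.087, and 0.63 with adjusted p = 0.028 without replicate 1). S100P had at most 13 reads and S100G, a vitamin D-dependent calcium carrier of the gut, at most 4 reads in any library. S100A5 had a log2 fold change of 0.54 (95% interval -0.11 to 1.18, adjusted p = 0.22), and 0.87 with an adjusted p of 0.011 without EWSR1::FLI1 low replicate 1. S100P and S100G had log2 fold changes of 0.89 and -0.24, and of 1.29 and -0.12 without it.

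The other 7 S100 genes were too low to test. S100A8 and S100A9, which together form calprotectin of myeloid cells, had at most 2 reads and 1 read. In the 1 library with reads of each, 3 reads would have been 0.720 FPKM for S100A8 (EWSR1::FLI1 high replicate 2) and 0.634 FPKM for S100A9 (EWSR1::FLI1 low replicate 2). S100Z, S100A14, S100A12, S100A1 and S100A7 reached at most 1.08, 1.04, 1.02, 0.869 and 0.292 FPKM. S100A14 was the one of these with groups that did not overlap, at 1 to 2 reads in EWSR1::FLI1 high and 5 to 11 in EWSR1::FLI1 low. S100A7 has near-identical copies, so its reads are uncertain.

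The called S100 genes lay on 1 chromosome, as most of the family does. Of the 19 S100 genes 15 lie on chromosome 1, in a stretch from chr1:151955391 to chr1:153604515 (GRCh37), and the 6 called genes were all among them. The tested S100 genes elsewhere, S100B, S100P and S100G, had few reads in most libraries. S100A10 (chr1:151955391-151966335) stands apart from the other called genes, the first of which is S100A6, starting at chr1:153507075. S100A6, S100A5, S100A4, S100A3, S100A2 and S100A16 follow each other in this order, with log2 fold changes of 1.24, 0.54, 2.49, 2.90, 2.09 and 3.52. Between S100A11 and S100A6 stand S100A9, S100A12, S100A8 and S100A7, which were too low to test. Within 100 kb of the S100 genes the table had 11 other genes, 8 of them tested, with log2 fold changes from -0.28 to 0.83 and a median of -0.11. With limma none of the 8 passed, against 4.51% higher and 3.37% lower over all genes tested. At an unadjusted p under 0.05 limma gave 1 higher, against 15.6% of all genes tested. Limma-voom on the recovered reads also called that gene, and called 6.1% of all genes higher. It was THEM4 (log2 fold change 0.83, adjusted p = 0.011; 0.0052 without EWSR1::FLI1 low replicate 1), a thioesterase gene next to S100A10, named after its value was seen.

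**Figure D3:**
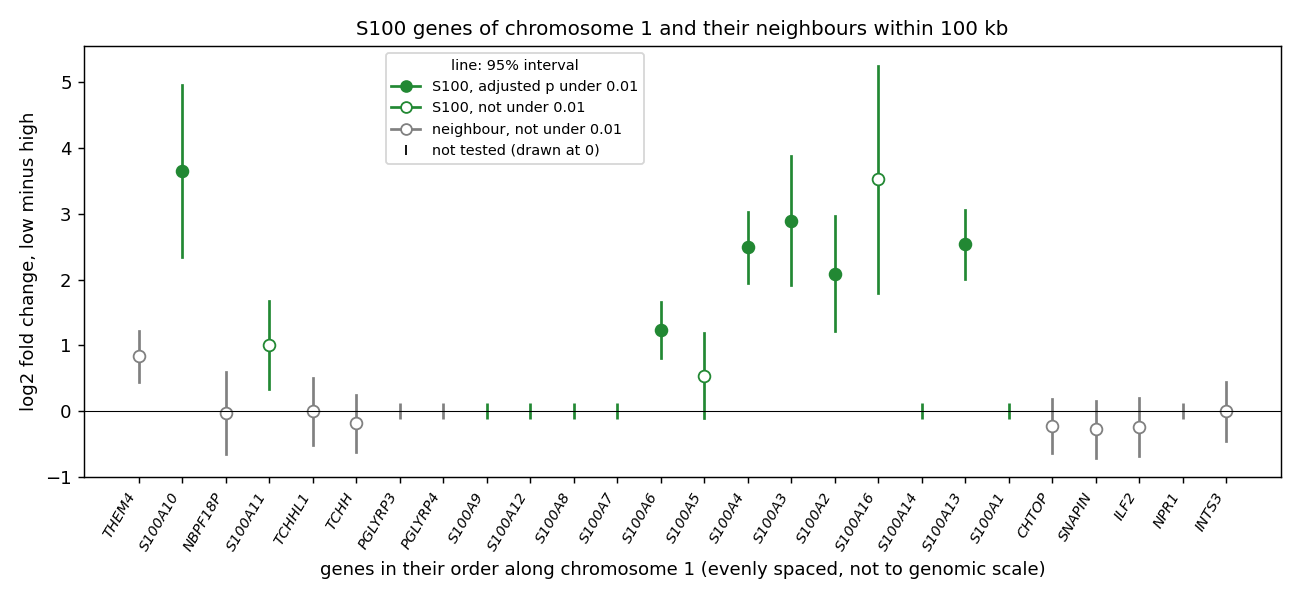
Log2 fold change (EWSR1::FLI1 low minus high, vertical axis) of the S100 genes of chromosome 1 (green) and of other genes within 100 kb (grey), in their order along the chromosome and evenly spaced, with 95% intervals. The 9 tested S100 genes lie between 0.54 and 3.65 and the 8 tested neighbours between -0.28 and 0.83.

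The promoters of the called S100 genes were read for 4 motifs, and those of the 2 called genes with the largest log2 fold changes are shown. RefSeq promoters (GRCh38.p14, 250 bases before to 50 after each start) were found for 18 S100 and 10 annexin genes. Searched on both strands were GGAAGGAA, a repeat of the core to which EWSR1::FLI1 binds, CCGGAAGT, bound by ETS factors at single sites, TGANTCA, bound by AP-1, and CATTCC, bound by TEAD factors. GGAAGGAA and TGANTCA can each share letters with CATTCC or its reverse complement, and the 4 motifs occurred in 3.67%, 4.14%, 7.71% and 14.0% of all 35116 promoters. The first of the promoters shown, chr1:151993810-151994109 on the minus strand, is that of S100A10, in lower case throughout since it holds none of the 4 motifs, and the second, chr1:153549209-153549508 on the minus strand, is that of S100A3, with its TGANTCA match in capitals.
S100A10 promoter: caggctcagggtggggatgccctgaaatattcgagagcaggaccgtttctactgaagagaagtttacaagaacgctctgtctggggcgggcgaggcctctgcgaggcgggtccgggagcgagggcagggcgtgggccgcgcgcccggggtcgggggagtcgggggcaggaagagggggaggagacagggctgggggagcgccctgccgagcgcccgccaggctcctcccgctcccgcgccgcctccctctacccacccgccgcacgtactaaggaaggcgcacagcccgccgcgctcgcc
S100A3 promoter: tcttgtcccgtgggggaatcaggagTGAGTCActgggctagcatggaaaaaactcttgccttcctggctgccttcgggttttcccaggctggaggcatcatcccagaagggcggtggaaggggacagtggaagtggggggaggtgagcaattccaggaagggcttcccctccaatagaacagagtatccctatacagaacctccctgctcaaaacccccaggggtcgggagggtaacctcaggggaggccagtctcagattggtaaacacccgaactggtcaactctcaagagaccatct

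The 2 promoters also differed in composition, with 71.7% G and C and 32 CpG pairs for S100A10 and 56.3% and 5 CpG pairs for S100A3, against medians of 58.7% and 14 over all promoters. The TGANTCA match of S100A3 begins at position -225 from the start, and 1 of the 2 starts of S100A2 has such a match at position -52. The other 4 called S100 genes, S100A10 among them, held none of the 4 motifs. Of the tested S100 genes that were not called, S100A16 has a CATTCC match at both starts, at positions 16 and -247, and 1 start of S100A5 has a TGANTCA match at position -17 and a CATTCC match at position -155. Of the tested annexins, ANXA2 has a TGANTCA match at position -127 and 1 start of ANXA4 a CCGGAAGT match at position 1. A match is a string of letters and does not show binding, and a missing match says only that the letters are not in this window.

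The annexins had the higher summed level in each library, and none of the 7 tested passed the threshold. ANXA2, which carries S100A10 on its tail and binds plasminogen with it at the cell surface, stood at 311, 365 and 367 FPKM in EWSR1::FLI1 high and at 459, 746 and 716 in EWSR1::FLI1 low. The groups did not overlap, and the log2 fold change of 0.85 (SE 0.21) had an adjusted p of 0.021, or 0.00042 without EWSR1::FLI1 low replicate 1. Reads of ANXA2 can be shared with its processed pseudogenes: ANXA2P2 was listed at 37.6 to 51.6 FPKM in EWSR1::FLI1 high and at 67.0 to 127 in EWSR1::FLI1 low, so the level of ANXA2 is uncertain by reads of that order. ANXA1, an anti-inflammatory annexin that acts through formyl peptide receptors, was at 365, 427 and 407 FPKM and at 358, 451 and 524 FPKM. Its groups overlapped, with a log2 fold change of 0.14 (95% interval -0.26 to 0.53, adjusted p = 0.62), and 0.28 (adjusted p = 0.11) without EWSR1::FLI1 low replicate 1. ANXA1 was above ANXA2 in each of the 3 EWSR1::FLI1 high libraries and below it in each of the 3 EWSR1::FLI1 low libraries.

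ANXA4, an annexin of epithelial membranes, had the largest change in its family, from 2.80, 1.87 and 2.89 FPKM to 4.57, 10.5 and 10.9 FPKM (log2 fold change 1.39, SE 0.30, adjusted p = 0.013; 0.00041 without EWSR1::FLI1 low replicate 1). It overlaps AAK1 on the opposite strand, and whether the counting used strand is not given in the sources used here. ANXA6 was at 95.3, 87.4 and 92.2 FPKM and at 117, 124 and 142 FPKM, without overlap between the groups (log2 fold change 0.47, SE 0.17, adjusted p = 0.080). The remaining 3 overlapped between the groups. ANXA5, whose protein binds phosphatidylserine on dying cells, was at 236, 277 and 298 FPKM and at 217, 350 and 343 FPKM (log2 fold change 0.14, 95% interval -0.35 to 0.63; 0.36 without EWSR1::FLI1 low replicate 1). ANXA7 was at 101, 105 and 102 FPKM and at 51.4, 88.2 and 102 FPKM (log2 fold change -0.41, 95% interval -0.98 to 0.17; -0.12 without EWSR1::FLI1 low replicate 1). ANXA11 was at 13.7, 13.5 and 16.9 FPKM and at 8.68, 13.2 and 20.4 FPKM (log2 fold change -0.12, 95% interval -0.76 to 0.51), and its sign turned to 0.16 without EWSR1::FLI1 low replicate 1. In all 7 tested annexins that library was the lowest of the EWSR1::FLI1 low group, as it was for 56.4% of all genes tested.

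**Figure D4:**
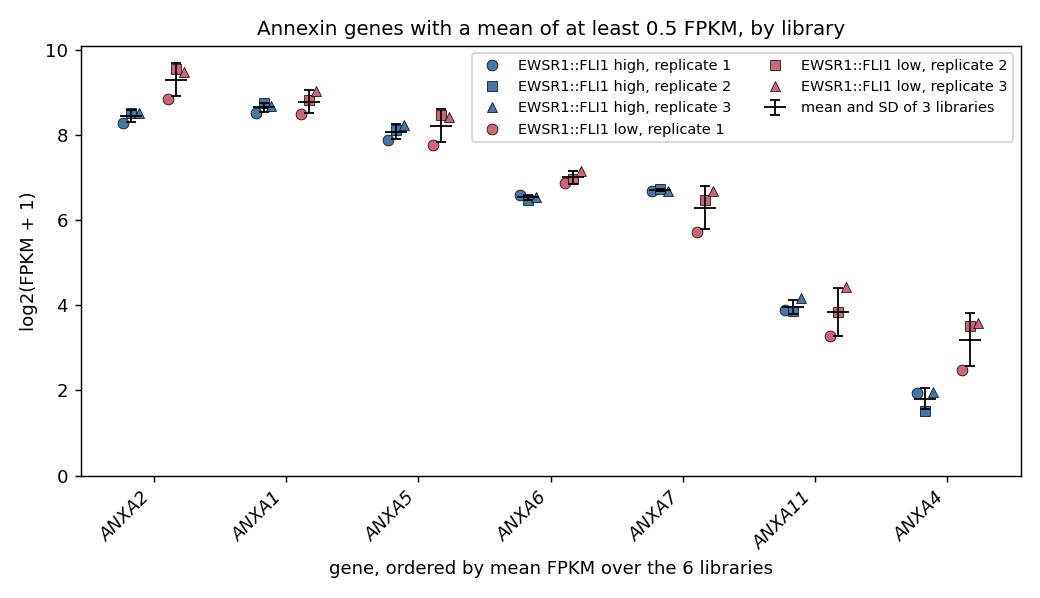
Level of the 7 tested annexins, as log2(FPKM + 1) on the vertical axis, for each EWSR1::FLI1 high (blue) and EWSR1::FLI1 low (red) library, with bars for the mean and SD of 3 libraries. The red and blue points do not overlap for ANXA2, ANXA6 and ANXA4, and EWSR1::FLI1 low replicate 1 (red circles) is the lowest red point of each gene.

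The other 5 annexins were too low to test. ANXA10, ANXA3, ANXA9, ANXA13 and ANXA8 reached at most 0.577, 0.904, 0.555, 0.706 and 0.0840 FPKM, from 13 reads or fewer. ANXA3 had 1 to 2 reads in EWSR1::FLI1 high and 6 to 13 in EWSR1::FLI1 low, without overlap, and ANXA8 has near-identical copies, so its reads are uncertain.

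Since S100 dimers and annexins act as complexes, the level of each S100 gene was set beside that of its partner in the same library. S100A10 was at 0.493%, 0.783% and 0.734% of the FPKM of ANXA2 in EWSR1::FLI1 high and at 2.72%, 9.57% and 10.1% in EWSR1::FLI1 low. The RNA of S100A10 thus stayed well under that of ANXA2 in all 6 libraries, and the groups did not overlap. S100A11 was at 7.69%, 8.71% and 11.7% of ANXA1 in EWSR1::FLI1 high and at 13.8%, 21.2% and 16.8% in EWSR1::FLI1 low. S100A6 was at 5.09%, 6.81% and 8.97% of ANXA11 and at 47.4%, 25.6% and 18.4%. All 3 S100 genes were higher relative to their partner in each EWSR1::FLI1 low library than in any EWSR1::FLI1 high library. An exact permutation test of 3 against 3 values cannot give a two-sided p below 0.1, so these ratios are given without one.

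The calls did not rest equally on all libraries or on the filter. Without the filter on low values, S100A10 (adjusted p = 0.01003) and S100A2 (0.019) were no longer called. S100A13 and S100A4 were called whichever of the 6 libraries was left out, with adjusted p of at most 0.0028 and 0.0034. S100A10 lost its call without any 1 of the EWSR1::FLI1 high libraries or without EWSR1::FLI1 low replicate 3 (adjusted p at most 0.018). S100A3 lost it without EWSR1::FLI1 high replicate 2 or 3 or EWSR1::FLI1 low replicate 3 (at most 0.016), S100A6 without EWSR1::FLI1 high replicate 1 or 2 or EWSR1::FLI1 low replicate 3 (at most 0.018), and S100A2 in every case but the removal of EWSR1::FLI1 low replicate 1 (at most 0.031). Without EWSR1::FLI1 low replicate 1, 8 S100 genes and 2 annexins were higher at an adjusted p under 0.01. They were the 6 named first with S100A11, S100A16, ANXA2 and ANXA4, and 10.2% of the 14907 genes then tested were called higher. In that fit the log2 fold changes were 4.46 for S100A10, 3.46 for S100A3, 2.77 for S100A13 and 2.70 for S100A4. For S100A2, S100A6 and S100A11 they were 2.60, 1.18 and 1.30. For ANXA2, ANXA4 and ANXA6 they were 1.07, 1.745 and 0.53, with ANXA6 not called (adjusted p = 0.014).

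Receptors and binding partners of the 2 families changed in part. Of 23 such genes 16 were tested, with a median log2 fold change of 0.62. At the threshold 5 rose and none passed as lower, against 4.51% and 3.37% of all genes tested. At an unadjusted p under 0.05 limma gave 7 higher and 3 lower, against 15.6% and 18.7%. Limma-voom called 6 higher and 1 lower, against 6.1% and 5.06%. KCNK3 was below a mean of 0.5 FPKM in EWSR1::FLI1 high and entered the test and the median through the EWSR1::FLI1 low libraries alone. PLAT, the plasminogen activator whose action S100A10 with ANXA2 helps to localise, stood at 6.31, 7.08 and 8.14 FPKM in EWSR1::FLI1 high and at 28.1, 150 and 93.1 in EWSR1::FLI1 low (log2 fold change 3.20, adjusted p = 0.0032). FGF1, a growth factor exported with S100A13, was at 0.980, 0.869 and 0.919 FPKM and at 3.23, 6.95 and 4.68 FPKM (1.58, adjusted p = 0.0021). The groups did not overlap for PLAT or FGF1. IL1A, the gene of the other S100A13 cargo, overlapped between the groups, at 23.2, 31.5 and 20.4 FPKM and at 19.6, 86.1 and 34.0 FPKM (log2 fold change 0.63, adjusted p = 0.36; 1.11 and 0.050 without EWSR1::FLI1 low replicate 1). MYH9, the myosin that S100A4 binds, also overlapped (0.85, adjusted p = 0.17; 1.31 and 0.0075 without that library), and SYT1, which takes part in FGF1 export, was lower without overlap but did not pass (-0.78, adjusted p = 0.015; -0.70 and 0.0042). IL1A, MYH9 and SYT1 were named for their roles after their values were seen. CACYBP and PLA2G4A, also named after their values were seen, were lower without overlap too and did not pass. CACYBP had a log2 fold change of -0.86 (adjusted p = 0.027; -0.67 and 0.014 without that library). PLA2G4A had one of -0.71 (adjusted p = 0.021; -0.67 and 0.0092 without it). MCAM and TLR4, receptors for the S100A8 and S100A9 proteins, rose with log2 fold changes of 1.43 and 1.11 (adjusted p = 0.0027 and 0.0052), and their ligands were at or near 0 reads. TLR4 was below a mean of 0.5 FPKM in EWSR1::FLI1 high and entered the test through the EWSR1::FLI1 low libraries alone, and its call was lost without the filter (adjusted p = 0.013) and with quantile normalization (0.011). DLC1, a tumour suppressor that binds S100A10, rose by 1.18 on the log2 scale (adjusted p = 0.0039). Of the 5 calls higher, 1 was left without EWSR1::FLI1 high replicate 1, 0 without replicate 2 and 1 without replicate 3. Without EWSR1::FLI1 low replicate 2 there were 3 and without replicate 3 there was 1. Without EWSR1::FLI1 low replicate 1 the list had 7 higher and 2 lower, and 10.2% of all genes then tested were called higher.

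Other genes of membrane repair and other EF-hand genes were used for comparison. Of 24 membrane repair genes 19 were tested, with 2 higher, 1 lower (4.51% and 3.37% over all genes tested) and a median of 0.36. At an unadjusted p under 0.05 limma gave 6 higher and 2 lower (15.6% and 18.7% over all genes). SYT7, among those 6, was below a mean of 0.5 FPKM in EWSR1::FLI1 high. It entered the test and the median through the EWSR1::FLI1 low libraries alone. Limma-voom called 4 higher and 1 lower (6.1% and 5.06%). MYOF, a ferlin that fuses membranes, rose from 3.69, 4.75 and 7.00 FPKM to 24.7, 61.8 and 73.0 FPKM (log2 fold change 3.04, adjusted p = 0.0011), and EHD2, an ATPase at the neck of caveolae, rose by 1.97 on the log2 scale (adjusted p = 0.00043). CAV1, the main coat protein of caveolae, fell from 280, 282 and 310 FPKM to 97.1, 156 and 158 FPKM (log2 fold change -1.11, adjusted p = 0.0083). MYOF and EHD2 passed whichever library was left out, CAV1 only without EWSR1::FLI1 low replicate 1. Without that library 7 of the 19 were higher and 1 lower, and 10.2% of all genes then tested were called higher. Among 40 other EF-hand genes 27 were tested, with a median of 0.22. EFHD1, TNNC2 and RPTN were below a mean of 0.5 FPKM in EWSR1::FLI1 high. They entered the test and the median through the EWSR1::FLI1 low libraries alone (log2 fold changes 0.20, 0.38 and 0.39). TCHH entered through the EWSR1::FLI1 high libraries alone (-0.19). At an unadjusted p under 0.05 limma gave 2 higher and 5 lower (15.6% and 18.7% over all genes). Limma-voom called none higher and 2 lower (6.1% and 5.06%). With limma none was higher at the threshold and 2 were lower (4.51% and 3.37%). GCA, or grancalcin, and CALML4 had log2 fold changes of -1.23 and -0.81 (adjusted p = 0.0028 and 0.0099). Neither GCA nor CALML4 passed without EWSR1::FLI1 high replicate 1 or 2, and GCA alone passed as lower without EWSR1::FLI1 high replicate 3 or EWSR1::FLI1 low replicate 2 or 3. CALML4 passed in 0 of the 6 fits that left out a library (adjusted p from 0.0102 to 0.057). Without EWSR1::FLI1 low replicate 1, 4 of 26 were higher and 2 lower, GCA among the lower ones and CALML4 not, and 10.2% of all genes then tested were called higher. No test of the difference between the S100 genes and these lists was made.

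Cells that are known for S100 genes were looked for by their markers, and in none of these lists was a marker at 0 in all 6 libraries. Of 10 keratinocyte markers 2 could be tested and none passed, with summed levels of 11.4 to 13.4 FPKM in EWSR1::FLI1 high and 7.20 to 9.27 in EWSR1::FLI1 low. KRT5 and KRT14, which define basal keratinocytes, were below 1 FPKM in all 6 libraries, while TP63, also of basal keratinocytes, was at 5.63 to 6.66 FPKM in EWSR1::FLI1 high and 1.56 to 3.91 in EWSR1::FLI1 low (log2 fold change -1.05, adjusted p = 0.017) and KRT10 at 2.47 to 5.75 FPKM over the 6. Of 10 myeloid markers 2 could be tested and none passed, with sums of 8.35 to 11.3 and 9.71 to 23.0 FPKM, and PTPRC, the leukocyte antigen CD45, was below 1 FPKM in all 6. CD68, a lysosomal protein abundant in macrophages, had the highest level of the list, at 5.39 to 8.72 FPKM in EWSR1::FLI1 high and at 4.67, 19.2 and 17.8 in EWSR1::FLI1 low. Its log2 fold change was 0.62 (adjusted p = 0.37), and 1.21 (0.0041) without EWSR1::FLI1 low replicate 1. Of 8 Schwann cell and melanocyte markers 4 could be tested and none passed, with sums of 4.70 to 7.54 and 7.00 to 8.24 FPKM, and SOX10 was below 1 FPKM in all 6. At an unadjusted p under 0.05 limma gave 0 higher and 1 lower, 0 and 0, and 2 higher and 1 lower in the 3 lists, and limma-voom called 0 higher and 1 lower, 0 and 0, and 1 higher and 0 lower. Without EWSR1::FLI1 low replicate 1, limma called 0 higher and 1 lower, 1 higher and 0 lower, and 1 higher and 0 lower. The part of other cell types in the S100 values was not tested beyond these levels.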

How the data were processed

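RNAseq of rRNA-depleted total RNA from 6 samples was used, grouped by their labels. According to the processing notes and the paper, the authors aligned reads to GRCh37 with STAR 2.5.0b and used Cufflinks 2.2.1, bedtools 2.17.0 and DESeq2 1.6.3. FPKM for each symbol in each library were deposited by the authors, without pooling and already scaled between libraries by size factors of 0.829 to 1.67. The authors also deposited a comparison table, of which only each gene's mean signal, averaged from normalized counts, was used. Its fold changes, standard errors, Wald scores and p-values were not used. FPKM multiplied by the ratio of that mean to the mean FPKM gave whole reads, after scaling, for 100% of values above 0, within 0.1 reads. Detection was taken as 3 reads, which covers counting error only.

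Where the mean FPKM was 0.5 or more, genes were tested on log2(FPKM + 1) with limma 3.58.1 (R 4.3.3; eBayes with trend) and Benjamini-Hochberg adjustment over 15504 genes. This scale understates changes of low genes. The fit was tested on simulated data first. Other steps used Python 3.11.15, pandas 2.3.3, scipy 1.17.1 and matplotlib 3.10.9. Members and lists were chosen with earlier results of these data known. Named are the members past the threshold, the 10 most highly expressed members, partners in a complex, up to 8 genes past the threshold per list, and others by name and range. Exceptions are named where they occur. GRCh37 gene positions are from GENCODE as lifted to that build, and promoters from RefSeq. No protein sequences were used here. Same-numbered samples of the 2 groups correlated in their deviations at 0.27, 0.089 and 0.12, so they were not treated as pairs. Alternatives were quantile normalization, median-ratio scaling, a pseudocount of 0.1, a minimum mean FPKM of 1 or none, a replicate block, eBayes without trend, limma-voom on recovered reads, sample quality weights, a threshold of 0.05 and leaving out each library.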

Additional observations from a re-analysis of the deposited data

How the results depend on the processing

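S100A13 and S100A4 were called higher under every alternative, and S100 genes were called lower under none. Calls over all genes, in either direction, also moved with the setting. Of 15504 genes 1222 were called in the main test, 4745 with sample quality weights, 1992 with quantile normalization and 1729 with limma-voom. The counts below are to be read beside these totals. S100 genes called higher numbered 10 with sample quality weights, which gave EWSR1::FLI1 low replicate 1 a weight of 0.172, 4 without a filter on low values, and 2 to 8 when a library was left out. Annexins called higher numbered 3 with quantile normalization, 3 with sample quality weights, 1 with limma-voom, 2 at a threshold of 0.05 and 0 to 2 when a library was left out. Receptors and partners called higher numbered 9 with sample quality weights and 0 to 7 when a library was left out, and called lower 1 with quantile normalization, 1 with limma-voom, 3 with weights and 0 to 2 on leaving out a library. Membrane repair genes called higher numbered 5 with quantile normalization, 4 with limma-voom, 11 with weights and 2 to 7 on leaving out a library, and called lower 0 without a filter and 0 to 1 on leaving out a library. Other EF-hand genes called higher numbered 3 with quantile normalization, 8 with weights and 0 to 4 on leaving out a library, and called lower 1 without a filter, 1 at a mean FPKM of at least 1, 4 with quantile normalization, 1 without trend, 5 with weights and 0 to 2 on leaving out a library. Of the neighbours on chromosome 1, 1 (THEM4) was called with a pseudocount of 0.1, with limma-voom, with weights and in 0 to 1 of them on leaving out a library. The log2 fold change of ANXA11 ranged from -0.41 to 0.16 on leaving out a library, positive without EWSR1::FLI1 low replicate 1. The cause was not tested.

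A replicate block, fitted although samples may share only a number (4 of 6 correlated best with their own number), gave 1702 calls over all genes against 1222, 8 S100 genes and 2 annexins higher, 2 membrane repair genes lower, 1 EF-hand gene higher and 1 lower, and 1 neighbour higher. Over all genes, 4745 calls were made with weights, 1992 with quantile normalization, 753 without a filter, 2334 without EWSR1::FLI1 low replicate 1, and 475 to 1104 without one of the other libraries. Median-ratio scaling left the deposited scaling as it was. Depth limits S100A6, S100B, S100P, S100G and the untested members, which had few reads.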
